A study of Mus musculus with 6 samples.

Results

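The genes for the proteins of the cytosolic ribosome were followed in the hippocampus of WT and Prmt9 KO mice. Members were the protein-coding genes of the GENCODE M21 annotation whose symbol is Rpl or Rps followed by a digit, together with Rplp0, Rplp1, Rplp2 and Rpsa, with the Rps6k kinase genes and symbols ending in -ps left out. Of 102 matching symbols, 16 were left out, and the remaining 86 members stood among 35865 annotated genes of the files, 21822 of them protein-coding. The members comprised 52 large-subunit (Rpl) and 34 small-subunit (Rps) symbols. Among them were 8 paralogs of ribosomal proteins (Rpl22l1, Rps27l, Rps27rt, Rpl3l, Rpl39l, Rpl10l, Rpl7l1 and Rpl36al) and Rps19bp1, which encodes a protein that binds RPS19 and is not itself a ribosomal protein, so that 77 core genes remained.

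The samples were hippocampi of 3 WT and 3 Prmt9 KO female littermates at 2 weeks of age, on the B6J background, 1 mouse per library. The KO is a whole-body deletion made by crossing a floxed Prmt9 allele with a CMV-Cre line, so every cell type of the tissue carries it. PRMT9 is an arginine methyltransferase of the splicing factor SF3B2, which is why transcripts that retain introns were followed beside total expression. All values come from polyadenylated RNA and are kallisto estimates per annotated transcript, given as TPM (a level per transcript length, scaled to a fixed total in each library) and as estimated counts. Levels of the members are sums over their annotated transcripts.

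The ribosome is built from a small subunit, which reads the mRNA, and a large subunit, which joins amino acids and holds the exit tunnel of the new chain. Its protein genes are housekeeping genes with short, very abundant mRNAs, and their products are needed in near-equal amounts. Vertebrate ribosomal protein mRNAs typically start with a run of pyrimidines, the terminal oligopyrimidine tract, through which the TOR pathway adjusts their translation. Several of the proteins bind their own pre-mRNA and raise the share of transcripts that keep an intron or are removed by nonsense-mediated decay. In neurons, ribosomal protein mRNAs are also carried into dendrites and axons.

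The start regions of 5 core genes show a long run of pyrimidines, and those of 3 other members are given for contrast. RefSeq start sites of build GRCm38.p6 were found for 66 of the 86 members. Each line gives the 15 bases before and the 15 bases after the annotated start, with the longest pyrimidine run of that window in capitals. These genes were chosen after their values were seen.
Rpl7a, chr2:26910792-26910821, forward strand: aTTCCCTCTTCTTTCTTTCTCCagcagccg
Rps10, chr17:27635230-27635259, reverse strand: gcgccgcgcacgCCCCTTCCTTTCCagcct
Rpl28, chr7:4792950-4792979, forward strand: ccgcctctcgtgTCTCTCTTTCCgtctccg
Rplp2, chr7:141447636-141447665, forward strand: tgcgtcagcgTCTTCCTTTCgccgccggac
Rpl13a, chr7:45128731-45128760, reverse strand: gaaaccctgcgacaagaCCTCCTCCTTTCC
Rpl7l1, chr17:46782642-46782671, reverse strand: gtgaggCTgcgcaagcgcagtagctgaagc
Rpl3l, chr17:24727811-24727840, forward strand: gagtgttctagctctgtcatttgaCCTCTg
Rpl10, chrX:74270801-74270830, forward strand: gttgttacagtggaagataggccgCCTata
The core genes Rpl7a, Rps10, Rpl28, Rplp2 and Rpl13a carry runs of 10 to 21 pyrimidines across or beside the start, and the paralogs Rpl7l1 and Rpl3l runs of 2 and 5. These windows do not part core genes from paralogs in general, since the core genes Rpl41 and Rps15 have runs of 3 and the paralog Rpl39l one of 7. The window of Rpl10 holds a run of 3, but its most abundant transcripts, Rpl10-211 and Rpl10-202, begin outside it, at positions 74270857 and 74270860. Taking for each gene the entry with the longest run, 35 of the 66 members (53.0%) had at least 8 pyrimidines in a row within 30 bases of the start on the coding strand, against 25.8% of 27025 genes. The letters CTTTC were present in this window in 34.8% of the members and 8.67% of all genes, and on the opposite strand in 10.6% and 7.10%. Such a match describes the letters of the window only. The first 5 bases from the annotated start were all pyrimidines in 16 of the 66 members (24.2%), against 4.91% of all genes.

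The estimated counts summed to between 194098391 and 286771677 per library. Prmt9 itself, the check of the labels, had 11.8, 15.2 and 14.96 TPM in WT and 3.93, 4.61 and 4.67 TPM in KO mice. The mice numbered 1 in both genotypes stood apart from the other 4. Hippocampal neuron markers were present in every library, and none of the 10 neuron markers or the 8 markers of hippocampal excitatory neurons was listed at 0. The neuron markers summed to 4897 TPM in WT mouse 1 and 5721 in KO mouse 1, against 6539 to 7135 in the other 4. In each mouse numbered 1, 8 of the 10 lay below the other 4 mice and 2 above. The excitatory markers summed to 412 and 476 TPM, against 537 to 592. For 7 astrocyte markers the sums were 1615 and 1721 TPM, against 2429 to 2684. The summed TPM of 8 oligodendrocyte genes was 2307 in WT mouse 1 and 1251 in KO mouse 1, against 8382 to 12195 in the other 4, and each of the 8 genes was lower in both. The 5 markers of dividing cells summed to 35.4 and 37.0 TPM in these mice and to 12.5 to 14.5 in the others. None of these markers was at 0. The mean fragment length implied by the effective transcript lengths was 191 bases in WT mouse 1 and 175 in KO mouse 1, against 166 to 169 in the rest. The neuron, excitatory and astrocyte markers had median lengths of 2998, 4166 and 3043 bases. In WT mouse 1 their median log2 ratios of TPM to the mean of the other 4 were -0.70, -0.65 and -0.47. In KO mouse 1 they were -0.37, -0.50 and -0.22. Other coding genes of 2000 to 4000 bases had -0.42 and -0.17 in these mice, and those above 4000 bases -0.73 and -0.37. The part of transcript length in the marker values was not tested. In bulk tissue, fewer cells of a type and less RNA per cell cannot be told apart.

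The members were among the most abundant mRNAs of the tissue. Their median level was 575 TPM, against 8.84 TPM over all protein-coding genes above 0, and 76 of the 86 had at least 100 TPM in every mouse. The 10 highest members held 28.7% of the members' TPM. Even among the core genes, whose products enter the ribosome in near-equal amounts, the highest mean was 77.4-fold above the lowest in TPM. The lowest was Rpl12, with a mean of 32.0 TPM beside 783 TPM in pseudogenes matched to it by sequence. This range is therefore uncertain. Rpl41, which encodes the smallest ribosomal protein, was highest with 5227, 1392 and 1499 TPM in WT mice 1 to 3 and 3568, 1607 and 1584 TPM in KO mice 1 to 3. Rplp1, a protein of the acidic stalk that recruits translation factors, followed with 4667, 1523 and 1547 TPM in WT and 2993, 1626 and 1572 TPM in KO. Rps29, a small zinc-binding protein of the small subunit, had 3662, 1461 and 1491 TPM in WT and 2766, 1581 and 1525 TPM in KO. In all of these genes WT mouse 1 was highest and KO mouse 1 second, and the other 4 mice lay close together whatever their genotype.

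**Figure D1:**
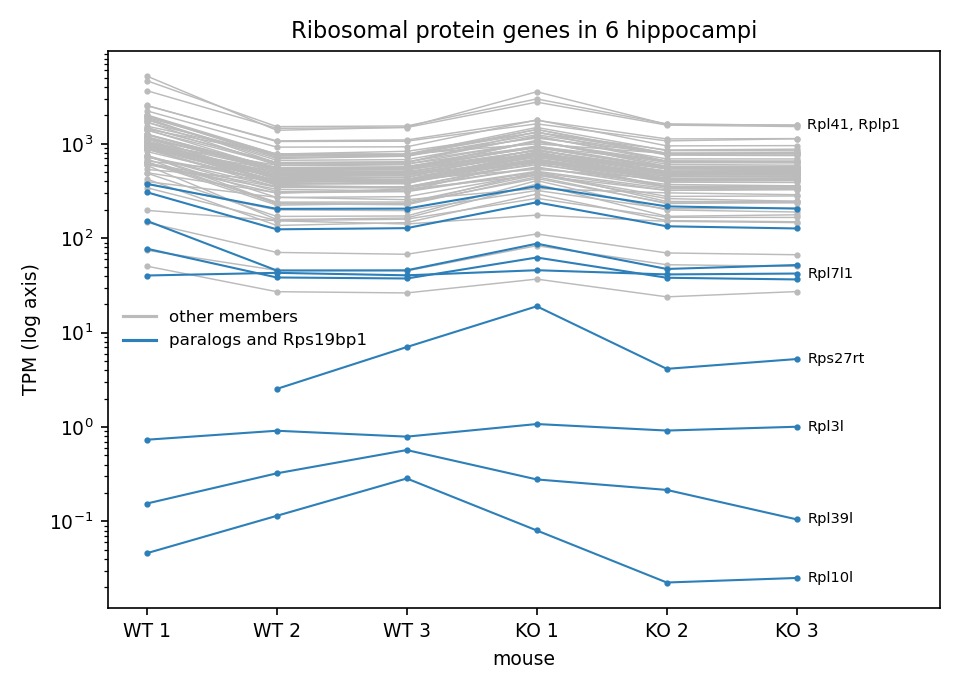
TPM on a log axis of each of the 86 members in the 6 mice, 1 line per gene joining its values, with the 8 paralogs and Rps19bp1 in blue and the other members in grey; a value of 0 (Rps27rt in WT mouse 1) is not drawn. The grey lines peak in WT mouse 1 and KO mouse 1 and run level over the other mice, whereas Rpl7l1 and Rpl3l stay nearly flat.

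At the low end stood mostly the paralogs. Rpl3l, the striated-muscle relative of Rpl3, had 0.734, 0.913 and 0.791 TPM in WT and 1.08, 0.918 and 1.01 TPM in KO, against a lowest value of 594 TPM for Rpl3. Rpl39l and Rpl10l, which are known from the testis, stayed below 1 TPM in every mouse. Rpl39l had 0.155, 0.323 and 0.570 TPM in WT and 0.278, 0.216 and 0.105 TPM in KO, and Rpl10l was highest at 0.285 TPM in WT mouse 3. Rps27rt, a retrotransposed copy of Rps27, was listed at 0 in WT mouse 1 and had 2.53 and 7.04 TPM in the other WT and 19.02, 4.13 and 5.25 TPM in the KO mice. Other paralogs were plainly present: Rpl36al had 205 to 377 TPM, Rpl22l1 had 124 to 307 TPM and Rps27l had 45.5 to 153 TPM over the 6 mice.

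Some low values belong to genes that share their sequence with processed pseudogenes. Matching pseudogene transcripts by sequence gave 1131 transcripts for 81 of the members, and their TPM came to 17.2% to 18.1% of the members' TPM in every mouse. In 12 members the matched pseudogenes held more TPM than the gene. Rpl12, a stalk-base protein of the large subunit, had 50.6, 27.2 and 26.3 TPM in WT and 36.9, 24.0 and 27.2 TPM in KO, while its 17 matched pseudogene transcripts had a mean of 783 TPM. Rps12 had a mean of 88.9 TPM beside 844 TPM in its pseudogenes, and Rpl5 had 58.6 TPM beside 490 TPM. For these genes the division of reads between gene and copy is an estimate, and their own levels are uncertain.

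The summed level of the members differed more between mouse numbers than between genotypes. It came to 92954, 38763 and 39316 TPM in WT mice 1 to 3 and to 68975, 40771 and 40689 TPM in KO mice 1 to 3. As a share of all TPM this was 9.37%, 3.91% and 3.97% in WT (5.75% ± 3.14, SD, n = 3) and 6.95%, 4.11% and 4.10% in KO (5.06% ± 1.64, SD, n = 3). The genotype means differed by -0.692 percentage points, less than either SD, and without WT mouse 1 the difference was 1.12 points in the other direction. Both subunits moved alike: WT mouse 1 stood 2.40-fold above the mean of the mice numbered 2 and 3 for the large and 2.24-fold for the small subunit genes. With the estimated counts in place of TPM, the members held 3.004%, 1.08% and 1.10% of the counts in WT and 2.10%, 1.16% and 1.15% in KO.

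This order of mice held for nearly every member. Both mice numbered 1 lay above the other 4 in 81 of the 86 members (94.2%), among them all 77 core genes, and in 78 members (90.7%) the order was WT mouse 1, then KO mouse 1, then the other 4. Among 9673 other protein-coding genes with a mean of at least 10 TPM, 23.7% had both mice above the rest, but among the 843 of these under 1000 bases the share was 73.3%. The median member was 2.25-fold above the mean of the other 4 mice in WT mouse 1 and 1.70-fold in KO mouse 1. Over the 6 mice the members' median coefficient of variation was 40.9%, and over the 4 mice numbered 2 and 3 it was 3.07%. The 5 members outside the pattern were the paralogs Rpl7l1, Rpl3l, Rpl39l, Rpl10l and Rps27rt. Rpl7l1, a relative of Rpl7 known from ribosome assembly, was the steadiest member with 40.3, 43.0 and 40.5 TPM in WT and 45.9, 41.4 and 42.3 TPM in KO, a coefficient of variation of 4.88%. Rpl27a also varied little, with 13.3%, while Rps20 and Rpl41 reached 65.0% and 63.6%.

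All functional lists of the members had medians above the other 4 mice in both mice numbered 1. The medians ran from 0.95 to 1.40 in WT mouse 1 and from 0.62 to 0.88 in KO mouse 1. On the log2 scale of TPM over the mean of the other 4 mice, the P stalk genes (Rplp0, Rplp1, Rplp2 and Rpl12) had medians of 1.28 in WT mouse 1 and 0.77 in KO mouse 1. The 9 proteins of the exit tunnel had 1.40 and 0.88, the 6 proteins of the mRNA channel and decoding site 1.18 and 0.73, and Rpl5 and Rpl11, which bind the smallest rRNA, 1.04 and 0.79. The 19 members known from Diamond-Blackfan anemia, an inherited failure of red cell production, had 1.23 and 0.79. The 7 members whose isoforms are known to be regulated by their own protein, among them Rpl3, Rpl10a, Rpl12 and Rpl30, had 0.95 and 0.62. Rps27a, which is made as a fusion with ubiquitin, had 1.33 and 0.77.

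Gene groups that work with ribosomal proteins but have longer transcripts had lower medians, a difference that was not tested. The 38 ribosome biogenesis factors had medians of -0.25 and 0.08 in WT mouse 1 and KO mouse 1, the 19 genes of RNA polymerase I and III transcription -0.30 and -0.11, and the 27 translation factors -0.14 and 0.10. For 20 other mRNAs with a terminal oligopyrimidine start, such as elongation factor genes, the medians were 0.34 and 0.41, and 12 of them in WT mouse 1 and 18 in KO mouse 1 lay above each of the other 4 mice. Short genes of other pathways came nearer to the members: 76 nuclear-encoded respiratory chain subunits had 0.92 and 0.54, and 78 mitochondrial ribosomal proteins 0.59 and 0.45. Other coding genes had lower ratios the longer their transcripts, with 0.79 and 0.50 for 373 genes of 500 to 800 bases, -0.02 and 0.08 between 1000 and 2000 bases, -0.42 and -0.17 between 2000 and 4000 bases, and -0.73 and -0.37 above 4000 bases. The members had a median length of 695 bases. The part that transcript length, fragment length or the cell type markers above have in the members' shift was not tested.

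**Figure D2:**
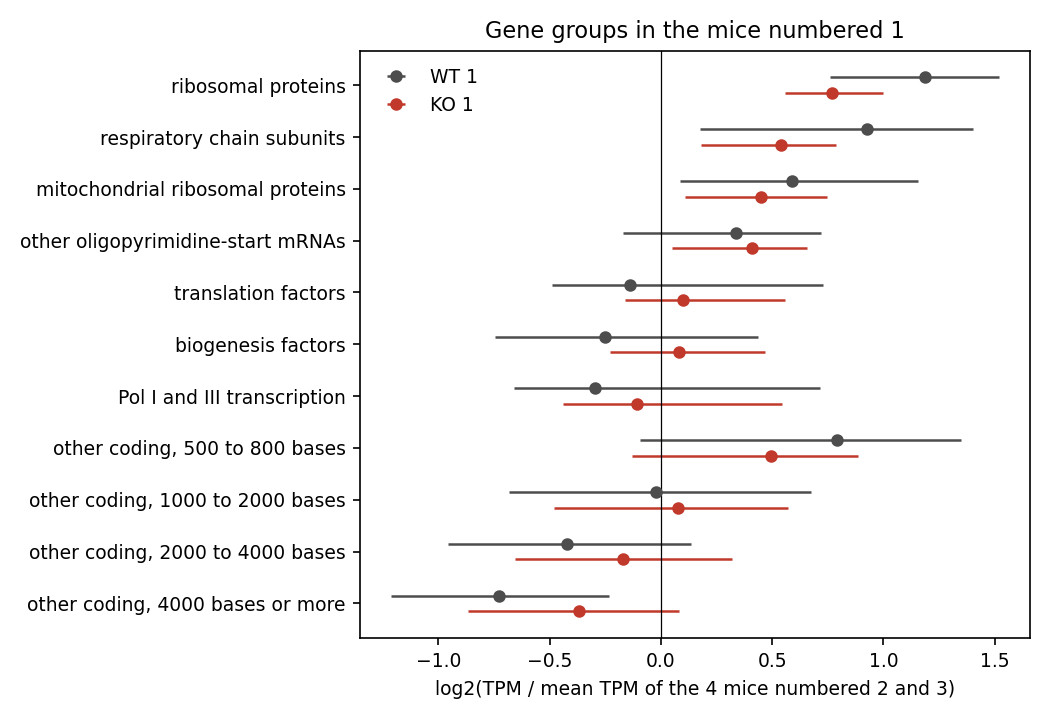
Median log2 ratio of TPM in WT mouse 1 (grey) and KO mouse 1 (red) to the mean of the 4 mice numbered 2 and 3, for ribosomal proteins without paralogs and Rps19bp1 and for other gene groups; lines run from the 10th to the 90th percentile of the genes in a group. Ribosomal proteins lie farthest right with 1.18 in WT mouse 1, and the 4 length classes of other coding genes move left as length grows.

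Between genotypes, no member was called in the test over all genes. For a call, the adjusted p of edgeR's quasi-likelihood test had to be below 0.01 with a change of more than 1.5-fold. Of 20315 genes tested, 0 (0%) were called and 252 (1.24%) had an unadjusted p below 0.05, and of the 85 members tested none reached that limit of 0.05 (Rpl10l did not pass the filter on low counts). Prmt9 itself was not called by this test, with a log2 fold change of -1.71 ± 0.10 (SE, adjusted p = 0.0327, edgeR), so a gene without a call may still differ. DESeq2 called 2 genes and gave 524 genes an unadjusted p below 0.05, no member among them. The members' median log2 fold change was -0.28, with 4 higher and 81 lower in KO, against -0.01 over all genes, of which 46.9% were higher. The 373 other coding genes of 500 to 800 bases had a median of -0.21, with 49 higher and 324 lower, and the respiratory chain subunits -0.26, with 5 higher and 70 lower. Without WT mouse 1 the median was 0.41, with 84 members higher and 2 lower, and without KO mouse 1 it was -0.62, with 2 higher and 84 lower. The direction of the whole group between genotypes thus depended on which mouse numbered 1 was in the fit. With the mouse number as a block the median was -0.16, and 0 members against 5.75% of all genes had an unadjusted p below 0.05.

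The members with the smallest p in each direction had log2 fold changes with wide errors. Rpl39l had a log2 fold change of -0.997 ± 0.609 (SE, unadjusted p = 0.151, the smallest among the members, edgeR). Rpl36, a large-subunit protein, had 1704, 594 and 579 TPM in WT and 906, 558 and 559 TPM in KO, and a log2 fold change of -0.59 ± 0.54 (SE) that became 0.26 without WT mouse 1. Rps21, Rpl13a and Rpl12 had log2 fold changes of -0.33, -0.38 and -0.36, which likewise turned to 0.20, 0.27 and 0.23 without that mouse. Higher values in KO were fitted for Rps27rt, Rpl3l, Rpl5 and Rpl10, at 1.64 ± 1.33, 0.18 ± 0.19, 0.04 ± 0.46 and 0.03 ± 0.29 (SE). Without KO mouse 1, Rps27rt had 0.56, and Rpl5 and Rpl10 turned to -0.36 and -0.11. With pseudogene counts added, Rpl5 and Rpl10 had -0.10 and -0.18. Rpl3l was the one member whose 3 KO values lay above all 3 WT values, which was so in 5.07% of 18120 protein-coding genes, and no member had all KO values below WT, against 1.35% of these genes.

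Within mouse numbers, the direction reversed. In the pair numbered 1, 8 members were higher and 78 lower in KO, with a median log2 TPM ratio of -0.40, while 75.5% of the other coding genes were higher. Short genes went the same way in this pair, with medians of -0.30 for the 373 other coding genes of 500 to 800 bases and -0.40 for the respiratory chain subunits. For number 2, 74 members were higher and 12 lower, with a median of 0.06, and for number 3, 78 were higher and 8 lower, with a median of 0.04. In these pairs 42.9% and 42.3% of the other coding genes were higher. Of the 86 members, 4 were higher in KO in all 3 pairs, among them Rpl14, Rpl3l and Rpl5, and 4 were lower in all 3 (Rpl36, Rps10, Rps12 and Rps19bp1). The share of all genes that kept one direction over the pairs was not counted, so no genotype effect was read from these names. Rpl5, whose protein helps to stabilise p53 when ribosome assembly fails, had 74.6, 45.7 and 45.1 TPM in WT and 83.4, 52.4 and 50.4 TPM in KO.

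**Figure D3:**
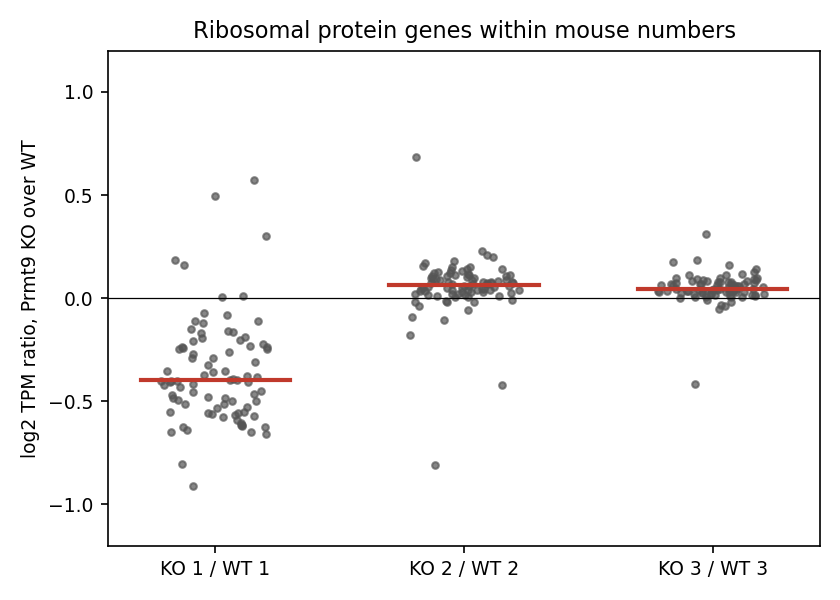
Log2 ratio of TPM in the KO mouse to that in the WT mouse of the same number, 1 point per member, with the median of all members as a red line; the values of Rps27rt, Rpl39l and Rpl10l beyond 1.2 in either direction are not drawn. The medians are -0.40, 0.06 and 0.04, so the points lie mostly below 0 in the pair numbered 1 and just above 0 in the others.

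In a fit of the mice numbered 2 and 3 alone, chosen after seeing the data, the spread was smaller and small differences could be measured. Of 86 members, 21 had an unadjusted p below 0.05 with a higher level in KO (24.4%, against 7.82% of all 20479 genes) and 2 with a lower level (against 8.6%). Other coding genes of 500 to 800 bases had 58 higher and 11 lower at this limit among 373. The members' median log2 fold change was 0.06, with 76 higher and 10 lower. One gene (0.00488%) was called over all genes, and no member was. The smallest p belonged to Rpl10, with a log2 fold change of 0.27 ± 0.04 (SE, unadjusted p = 0.000737, adjusted p = 0.116, edgeR). Next among those higher in KO were Rpl5 with 0.21 ± 0.04, Rpl10a with 0.17 ± 0.04, Rps2, a protein at the mRNA entry, with 0.12 ± 0.03, and Rplp0, the base of the stalk, with 0.12 ± 0.03. In Rpl10, Rpl5 and Rpl10a the matched pseudogenes held more TPM than the gene. In mice 2 and 3 those of Rpl10 had 379 and 402 TPM in WT and 378 and 362 TPM in KO. Those of Rpl5 had 372 and 384 TPM in WT and 400 and 398 TPM in KO. The part that the division of reads between gene and copy has in these differences was not tested. The 2 lower ones were Rpl10l and Rpl39l, both under 1 TPM. Of the pathway lists, 5 of 20 other oligopyrimidine-start genes were higher and 1 lower in KO at this limit, 6 of 38 biogenesis factors were higher and 3 lower, and 0 of 27 translation factors were higher and 2 lower. Marker genes of other cell types differed between the genotypes in these mice too: 5 of 5 blood and 3 of 5 dividing-cell markers were lower in KO at this limit, and 4 of 7 astrocyte markers were higher and 1 lower. Of the 8 choroid plexus and ependyma markers 2 were higher and 0 lower, with a median log2 fold change of 0.67, and they summed to 634 and 2026 TPM in WT and 2361 and 3373 TPM in KO mice 2 and 3. The blood markers summed to 4278 and 6334 TPM in WT and 3275 and 1932 TPM in KO mice 2 and 3, and the astrocyte markers to 2429 and 2484 TPM in WT and 2616 and 2684 TPM in KO. Their part in the members' values was not tested.

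Transcripts annotated as the retained-intron type made up a small part of the members' TPM. The members have 505 annotated transcripts, of which 237 are protein-coding, 177 are of the retained-intron type and 26 are of the nonsense-mediated decay type. Retained-intron transcripts held 2.94%, 3.33% and 3.47% of the members' TPM in WT and 3.02%, 3.31% and 3.49% in KO. Over all protein-coding genes these shares were 6.09%, 8.07% and 8.16% in WT and 6.83%, 7.83% and 8.25% in KO. The median member share was 1.36%, against 10.8% for all genes tested, and 16 of 65 members with such a transcript had a mean share over 5%. The share was lower in WT mouse 1 than in each of the mice numbered 2 and 3 in 54 of the 65 members, and lower in KO mouse 1 in 45.

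Rps16 and Rps20 had the largest shares, at 92.2% and 88.3% of the gene's TPM on average, and both were nearly the same in every mouse. In Rps16, a small-subunit protein, the share ran from 91.2% to 93.4%, and in Rps20 from 87.3% to 89.6%. Their annotated types need care. The leading retained-intron transcript of Rps16 has 518 bases, of which 68 lie outside the exons of its coding transcripts, and the leading coding transcript is 1109 bases long. For Rps20 the retained part is 192 of 582 bases, and the leading coding transcript is 3706 bases long. Most bases of both transcripts are thus shared with coding exons, and these 2 shares were not read as unspliced RNA.

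Rpl12, Rpl5 and Rpl10a, all of the large subunit, had larger shares in the mice numbered 2 and 3 than in those numbered 1. The share of Rpl5 was 19.9%, 39.1% and 39.9% in WT and 25.3%, 38.3% and 38.6% in KO. Rpl12 had 49.2%, 62.9% and 63.9% in WT and 54.1%, 63.4% and 64.4% in KO. Rpl10a had 15.1%, 30.2% and 30.2% in WT and 15.8%, 24.6% and 28.5% in KO. In all of these the genotypes overlapped. In these genes, as in Rps16, Rps20, Rps12, Rpl10, Rps23 and Rpl27a, the matched pseudogenes held more TPM than the gene, so the shares describe only the reads assigned to the gene. Rps26 had 35.7%, 25.1% and 25.3% in WT and 23.3%, 23.8% and 22.1% in KO, and the genotypes did not overlap (limma, unadjusted p = 0.136). WT mouse 1 was high and the KO mice lay together.

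No member was called for its retained-intron share. The test used limma on the log2 ratio of retained-intron to other TPM of a gene, and for a call the adjusted p had to reach 0.01 or less with a difference of 5 percentage points or more. Of 7897 genes, 0 (0%) were called and 156 (1.98%) had an unadjusted p below 0.05, and none of the 65 members reached that limit. The log2 ratio was higher in KO in 48 of the 65 members, with a median of 0.13, against 57.8% and 0.05 for all genes. Without WT mouse 1 the median was -0.20 for the members and -0.10 for all genes. The genotypes did not overlap in 4 members, among them Rps26, Rpl27a and Rps27l, against 7.94% of all genes tested. Rpl27a, a large-subunit protein, had 6.48%, 12.1% and 9.75% in WT and 12.4%, 14.1% and 14.4% in KO (log2 ratio 0.64 ± 0.29, SE, unadjusted p = 0.0665). With the mouse number as a block, 2 of 65 members had an unadjusted p below 0.05 in limma, against 4.99% of all genes. Rpl27a was among them with an unadjusted p of 0.029, which stood at 0.788 after adjustment in limma.

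**Figure D4:**
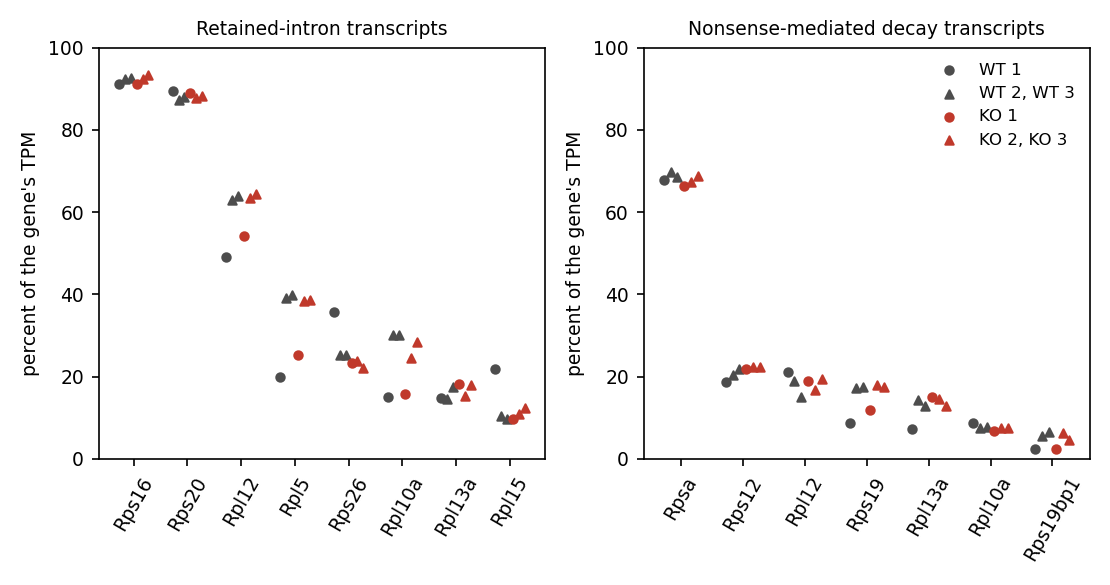
Percent of a gene's TPM in retained-intron transcripts (left) and in nonsense-mediated decay transcripts (right), in each mouse, for 8 and 7 members with large mean shares of each kind; circles are the mice numbered 1 and triangles the mice numbered 2 and 3, in grey for WT and red for KO. Rps16 and Rpsa lead at 92.2% and 68.1%, and in the left panel the circles of both genotypes lie below the triangles for Rpl5, Rpl12 and Rpl10a.

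Transcripts marked for nonsense-mediated decay held 2.67%, 3.11% and 3.09% of the members' TPM in WT and 3.18%, 3.13% and 3.09% in KO. Rpsa, the laminin-receptor protein of the small subunit, had the largest share with a mean of 68.1%. It stayed in a narrow range over the mice, from 66.3% to 69.8%. The 2 decay-type transcripts of Rpsa had a mean of 655 TPM, and its leading coding transcript, of 1599 bases, had 207 TPM. The type is an annotation and the division of reads among transcripts an estimate, so this share was not read as RNA that decays. Rps12, Rpl12, Rps19 and Rpl13a had means of 21.2%, 18.3%, 15.2% and 12.8%. Of 3819 genes tested, 0 (0%) were called by limma and 113 (2.96%) had an unadjusted p below 0.05, with none of the 20 members among them. The share was higher in KO in 14 of the 20, with a median log2 ratio of 0.15, against 56.4% and 0.05 for all genes. Without WT mouse 1 the median was -0.07 for the members and -0.01 for all genes. Rpl14 had the smallest p, with 3.26%, 1.45% and 2.11% in WT and 10.96%, 4.02% and 2.51% in KO (log2 ratio 1.198, unadjusted p = 0.105). KO mouse 3 lay below WT mouse 1, so the genotypes overlapped, and without KO mouse 1 the log2 ratio was 0.57. With the block, Rpl14 had an unadjusted p of 0.0399, 1 of 20 members against 4.27% of all genes. The genotypes did not overlap in 4 of the 20 members, against 9.24% of all genes tested, namely Rps12, Rpl3, Rpl36a and Rpl9. Rpl9 and Rpl3 had shares under 0.5% in every mouse, with unadjusted p of 0.161 and 0.224.

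Among single transcripts of the members, the smallest p between genotypes belonged to coding transcripts of Rpl10, which encodes a protein that joins the large subunit late in its assembly. They came from a test of every transcript's share of its gene, added after seeing the data. Of 38724 transcripts, 0 (0%) were called and 998 (2.58%) had an unadjusted p below 0.05, and of 142 member transcripts 2 reached that limit, both of Rpl10. Rpl10-202 keeps the 100-base first intron at chrX:74270879-74270978 on the forward strand (GRCm38). This intron lies before the start codon at position 74271002, so the protein sequence is the same whether or not it is kept. The ends of the intron, in capitals, with 10 bases of the neighbouring exon, show the donor and acceptor sites that stay unused in this transcript.
Rpl10 donor, chrX:74270869-74270898: ggcgcggtgaGTGAGTTCGGTCACGGTTTT
Rpl10 acceptor, chrX:74270959-74270988: CTTTGACTGTTTCATTACAGccaccgacga
The intron begins with GT and ends with AG. Rpl10-202 had 65.7, 27.8 and 26.9 TPM in WT and 153, 81.9 and 89.2 TPM in KO. Every KO mouse lay above every WT mouse, and the ratio of KO to WT was 2.33, 2.95 and 3.32 for mice numbered 1, 2 and 3. How many of all transcripts separated the genotypes in this way was not counted. The share of Rpl10-202 in its gene was 16.5%, 10.2% and 10.5% in WT (12.4% ± 3.55, SD, n = 3) and 45.5%, 27.1% and 30.8% in KO (34.5% ± 9.77, SD, n = 3). The difference was 22.1 percentage points (exact permutation test, two-sided, p = 0.1, the smallest that 3 mice against 3 allow). In limma the log2 ratio of Rpl10-202 to the other Rpl10 transcripts was 1.90 ± 0.38 (SE, unadjusted p = 0.00224, adjusted p = 0.9998). With the mouse number as a block the unadjusted p was 0.0002, at rank 3 of all transcripts, and the adjusted p 0.796. In that fit 3 member transcripts had an unadjusted p below 0.05, against 4.35% of all transcripts. Leaving out each mouse in turn gave log2 ratios from 1.55 to 2.16 and unadjusted p from 0.00136 to 0.00911.

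The transcript Rpl10-211, which splices this intron and ends earlier, had a difference in the other direction. It had 234, 163 and 147 TPM in WT and 80.1, 134 and 120 TPM in KO, and its share was 58.8%, 59.9% and 57.3% in WT and 23.8%, 44.2% and 41.6% in KO (limma, unadjusted p = 0.0103). Each transcript was tested against the rest of its gene, so the results for Rpl10-211 and Rpl10-202 are not independent. Rpl10-201, which also splices the intron but from a donor 4 bases upstream, had 75.5, 51.0 and 49.5 TPM in WT and 71.9, 58.0 and 49.5 TPM in KO. The total of the gene overlapped between genotypes, with 398, 271 and 256 TPM in WT and 336, 303 and 289 TPM in KO. Rpl10 is on chromosome X, as are 3 other members, and its 17 matched pseudogene transcripts held 821, 379 and 402 TPM in WT and 663, 378 and 362 TPM in KO. The pseudogene sums overlapped between genotypes, and their part in the shares was not tested. Because Rpl10-202 is annotated as protein-coding, it is not counted in the retained-intron share of the gene, which was 4.12%, 9.26% and 10.4% in WT and 7.61%, 7.72% and 9.003% in KO.

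**Figure D5:**
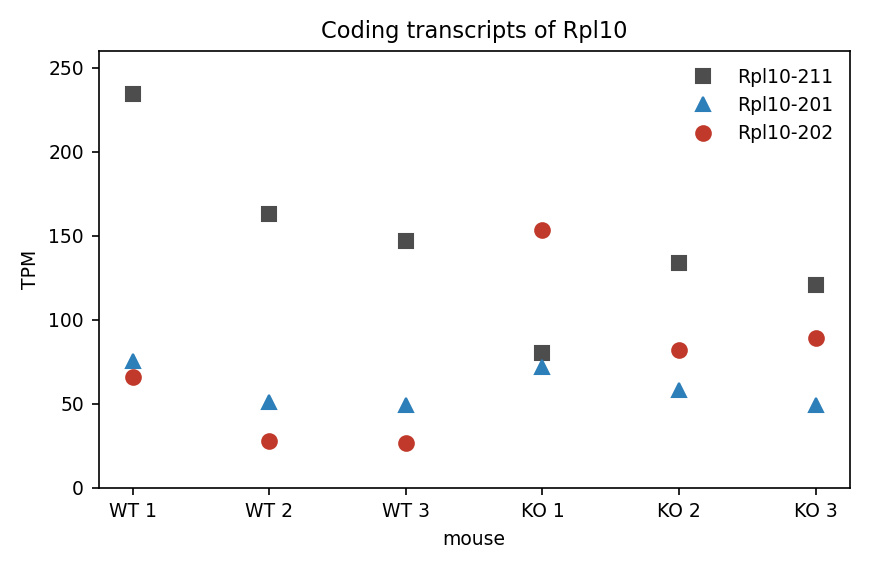
TPM of the 3 most abundant coding transcripts of Rpl10 in each mouse: Rpl10-211 and Rpl10-201 splice the first intron and Rpl10-202 keeps it. Rpl10-202 lies at 26.9 to 65.7 TPM in WT and at 81.9 to 153 TPM in KO mice, and Rpl10-211 is highest in every mouse other than KO mouse 1.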

How the data were processed

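RNA-seq of 3 WT and 3 Prmt9 KO hippocampi was used. The authors quantified polyadenylated, strand-specific paired-end libraries with kallisto and deposited TPM and estimated counts (expected counts) for 118783 transcripts, and a gene table of TPM. The submitters' processing notes name kallisto 0.46.0 and STAR 2.7.1a. Of the transcripts, 116622 matched GENCODE M21 (GRCm38) by identifier and 2161 were left out. Replicates are separate mice.

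For each gene, the estimated counts of its transcripts were added, rounded and tested with edgeR 4.0.16 (TMM, filterByExpr, quasi-likelihood). DESeq2 1.42.0 was an alternative. Retained-intron, nonsense-mediated decay and transcript shares were tested with limma 3.58.1 on log2 ratios of TPM with 0.1 added, in genes of at least 1 TPM in every mouse, and single transcripts with a mean share between 5% and 95%. p-values were adjusted by Benjamini-Hochberg over all features tested. KO/WT ratios within mouse numbers and over the other mice are of TPM. Pseudogene transcripts were matched at 90% identity over 80% of their length. The fits were tested on simulated data. Depth was 194098391 to 286771677 estimated counts per library. TPM is scaled within a library, so a shift in short transcripts moves every other value.

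Over genes, the deviations of a WT and a KO mouse of one number from their genotype means had correlations of 0.808, 0.743 and 0.704. A blocked fit that treated the numbers as pairs was made as an alternative. Mice of different genotype numbered 2 and 3 correlated alike, at 0.674 and 0.758. These values therefore set the mice numbered 1 apart but do not show that 2 pairs with 2 or 3 with 3. The labels do not say what a number marks.

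The members and gene lists were chosen with earlier results of these data known. Members named were those with the 6 highest and 6 lowest levels, in the functional lists, with the 5 smallest p in each direction, the 8 largest shares and 3 smallest p of each share test, and the 5 largest and smallest coefficients of variation. Others named were chosen after their values were seen. Some members that this rule takes in are not reported here. Alternatives were other normalizations, filters, pseudocounts, units, a term for the mice numbered 1, pseudogene counts added, and each mouse left out.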

Additional observations from a re-analysis of the deposited data

How the results depend on the processing

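The genotype comparison of the members depended on the mice numbered 1. The count of genes called was 0 in edgeR, 2 with DESeq2, 1 with a term for the mice numbered 1 and 1 with only the mice numbered 2 and 3, and 0 whichever mouse was left out. Members with an unadjusted p below 0.05 numbered 0 in edgeR and 0 to 2 with 1 mouse left out. They were 2 of 86 without WT mouse 1, 1 of 86 without KO mouse 1 and 23 of 86 with only the mice numbered 2 and 3. Over all genes, 693 of 20700 reached this limit without WT mouse 1 and 247 of 20654 without KO mouse 1. With only the mice numbered 2 and 3, 3363 of 20479 genes did. The members' median log2 fold change was -0.28, from -0.62 without KO mouse 1 to 0.41 without WT mouse 1, and 0.058 with only the mice numbered 2 and 3. Leaving out 1 mouse moved the difference in the members' share of all TPM from -1.64 to 1.12 percentage points, and with only the mice numbered 2 and 3 it was 0.17. With 1 mouse left out, log2 fold changes ran from 0.56 (without KO mouse 1) to 2.93 (without WT mouse 3) for Rps27rt, from -0.14 to 0.42 for Rpl10 (-0.11 without WT mouse 2, -0.14 without WT mouse 3 and -0.11 without KO mouse 1), from -0.36 to 0.62 for Rpl5 (-0.17 without WT mouse 2, -0.18 without WT mouse 3), from -0.90 to 0.26 for Rpl36, from -0.53 to 0.20 for Rps21, from -0.63 to 0.27 for Rpl13a and from -0.63 to 0.23 for Rpl12. With pseudogene counts added, Rpl10 and Rpl5 had -0.18 and -0.10. With only the mice numbered 2 and 3 (2 a genotype), Rps27rt, Rps21 and Rpl13a had -0.011, 0.041 and 0.023. The cause of these changes was not tested. With the replicate block, the members' median was -0.16, the pairing changed no call, and 1168 in place of 252 of all genes had an unadjusted p below 0.05. The other 312 values kept their direction and side of the threshold or stayed within 1 SD. The members' median coefficient of variation was 40.9% over 6 mice and 3.07% over the mice numbered 2 and 3, and Rpl10l, Rpl39l and Rpl3l rest on about 1 TPM or less.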

Other observations

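Introns of the members also hold snoRNA genes, which guide the modification of rRNA. Of the members, 30 contain 58 annotated snoRNA genes, with 5 in Rpl4 and 4 in Rpl13a. Rpl4 had 888, 506 and 512 TPM in WT and 761, 517 and 517 TPM in KO, and the snoRNAs themselves, which are short and not polyadenylated, were not analysed here.

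Genes encoded in mitochondrial DNA, which are also short, were lower in the mice in which the members were higher. The median log2 ratio of TPM to the mean of the 4 mice numbered 2 and 3 was -0.76 in WT mouse 1 and -0.37 in KO mouse 1 over 13 genes with a median length of 784 bases. The choroid plexus and ependyma markers summed to 7316 TPM in WT mouse 1 and to 634 to 3373 TPM in the other 5 mice, 899 TPM of it in KO mouse 1.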
